A study of Mus musculus with 10 samples.

Results

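The 9 genes described here encode leukocyte adhesion molecules and selectins of the vessel wall. They were listed by name and comprise Sele, Selp, Selplg, Icam1, Icam2, Vcam1, Cd34, Mcam and Alcam, so 9 of the 46983 genes in the count table. All 9 passed the filter on low counts, which left 15949 genes for testing. They were measured by RNA-sequencing of CD31+ cells isolated from hearts of wild-type C57BL/6J mice with antibody-coupled magnetic beads. Before that isolation the hearts were digested with collagenase and dispase. The mice, male according to the methods of the study, were 8 weeks old when they were assigned to a diet. For 14 days, 5 samples came from mice on the control diet (D12359, 11.6 kcal% fat) and 5 from mice on the ketogenic diet (D17011501, 89.5 kcal% fat). No other treatment or genotype separates the groups. CD31 is also carried by platelets and many leukocytes, so the bead isolation does not exclude them. The labels do not say whether each library came from a single mouse, and if it did not, the p-values measure only the spread between these libraries. The question is whether the diet altered the RNA of this adhesion machinery in cardiac endothelial cells (ECs).

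Leukocytes leave the blood in steps. Selectins on activated endothelium (E-selectin and P-selectin) catch sugar-decorated ligands such as PSGL-1 and make leukocytes roll. Immunoglobulin-type molecules (ICAM-1, ICAM-2, VCAM-1) then bind leukocyte integrins and arrest the cell. In most tissues E-selectin and VCAM-1 are scarce in resting vessels and are induced through the transcription factor NF-kB, whereas ICAM-2, CD34 and MCAM (CD146) are carried by resting endothelium.

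Between 10885154 and 12206734 reads per control library and between 11108020 and 12710861 per ketogenic library were counted on genes. Endothelial marker genes summed to 759 to 805 RPKM (reads per unit of gene length and of library size) in control and 730 to 829 in ketogenic libraries, so the markers of the labelled cell type were present. Markers of other cells were present too. The 8 platelet and megakaryocyte markers summed to 289 to 437 RPKM in control and 138 to 325 in ketogenic libraries. The 7 leukocyte markers summed to 99.7 to 254 against 102 to 154. The 10 cardiomyocyte markers summed to 179 to 220 against 202 to 272. No marker on these lists was at 0 in every library. In bulk RNA, fewer cells of a type and less RNA per cell cannot be told apart.

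All 9 genes had a log2 fold change below 0 on the ketogenic diet, and none passed the test. The median log2 fold change (ketogenic minus control) was -0.14, beside -0.0057 over all genes tested, of which 51.4% lay below 0. By edgeR's quasi-likelihood test with Benjamini-Hochberg adjustment, 0 of the 9 genes had an adjusted p under 0.05, while 213 of all genes (1.34%) did, 129 higher (0.809%) and 84 lower (0.527%). At an unadjusted p under 0.05, 3 of the 9 genes were lower (Mcam, Selp and Vcam1), beside 17.8% of all genes, 9.26% lower and 8.57% higher. DESeq2 called 2 of the 9 genes lower, Mcam with an adjusted p of 0.0130 and Selp with 0.0404, and it called 5.67% of the genes to which it gave an adjusted p. The counts of Icam1, and less plainly those of Icam2, Vcam1 and Cd34, lay close to an upper limit of the table, which is described first because it bears on how their differences can be read.

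The highest counts in this table stopped near 2 reads per base of the deposited gene length, which equals 1 read for each start position on each strand. Among genes of at least 500 bases, no gene exceeded 2.10 reads per base in any library, and 4 exceeded 2. Icam1 (gene ENSMUSG00000037405.7) shows the limit most plainly. Its raw counts were 5006, 5061, 5013, 4998 and 5041 in control libraries 1 to 5 and 4951, 5023, 4959, 5001 and 5017 in ketogenic libraries 1 to 5. These 10 counts are 97.7% to 99.8% of 2 reads per base of its principal transcript (2535 bases), and their variance was 0.180 of their mean, where random sampling alone gives a ratio of 1. Icam2 lay at 84.9% to 88.4% of 2 reads per base of its principal transcript, with a variance of 0.400 of the mean. Cd34 lay at 95.9% to 104.8% and Vcam1 at 91.9% to 102.3%, but their variances were 4.66 and 6.63 times the mean, above that of sampling. Values over 100% also show that the principal transcript alone does not bound their counts, and per base of the deposited length these 3 genes reached only 34.7% to 36.1% (Icam2), 23.7% to 25.9% (Cd34) and 33.0% to 36.8% (Vcam1). Of 2 reads per base of principal transcript, Mcam reached 57.3% to 70.8%, Sele 28.1% to 39.6% and Selp 25.6% to 38.0%, and Selplg (1.59% to 5.09%) and Alcam (0.116% to 0.398%) were far below it.

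**Figure D1:**
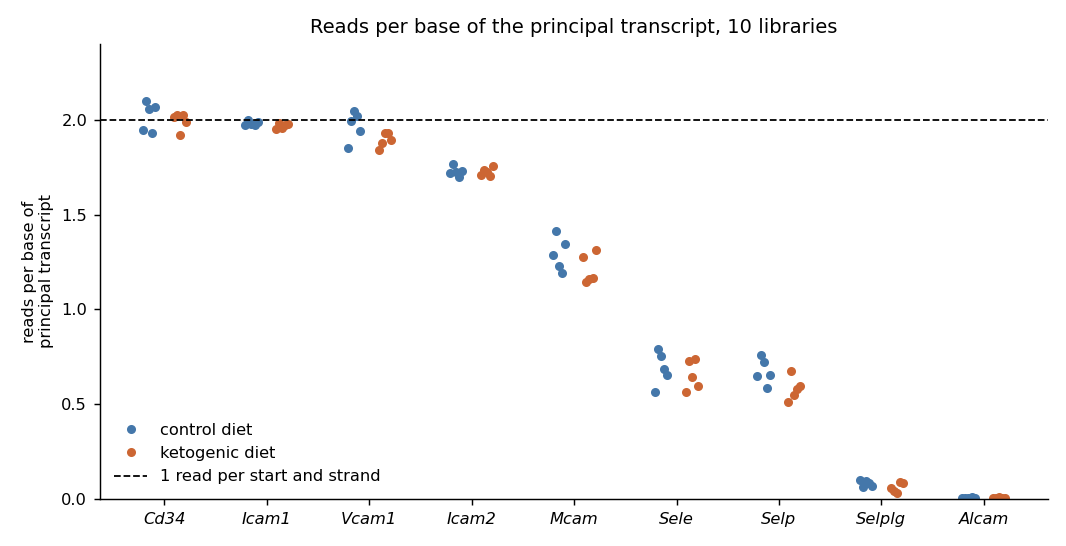
Reads per base of the principal transcript (vertical axis, linear) for each gene in the 5 control (blue) and 5 ketogenic (orange) libraries, 1 point per library, with a dashed line at 2 reads per base. Cd34, Icam1 and Vcam1 sit close to the line in every library, with the least spread for Icam1, Icam2 lies under it, and Mcam, Sele and Selp below it with a visible spread.

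The raw counts of Icam1 and Icam2 varied less than sampling gives, so most of their normalised difference is that of the library sizes by which they were divided. The raw counts of Vcam1 and Cd34 varied more than that and ran from 6377 to 7100 and from 4708 to 5145. Scaled library size was on average 0.0664 higher on the log2 scale in the ketogenic group. A mean count of 90% or more of 2 reads per base of principal transcript was found for 136 (0.853%) of all genes tested. Their median log2 fold change was -0.0646, 121 of them (89.0%) were below 0, and 0 were called. The raw counts of Icam1 differed by -0.0097 on the log2 scale, those of Icam2 by -0.0012, those of Cd34 by -0.019 and those of Vcam1 by -0.057, whereas their normalised log2 fold changes were -0.08, -0.07, -0.08 and -0.12. For Mcam the raw difference was -0.095, for Sele -0.079 and for Selp -0.21. The sources used here do not say how reads that share a start position were counted, and the cause of the limit was not tested. A log2 fold change near -0.07 is what a constant count gives after scaling.

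The vascular selectins are described first. Sele (E-selectin, gene ENSMUSG00000026582.6) lies on mouse chromosome 1 at 164048234 to 164057677, plus strand (GRCm38), and Selp (P-selectin, ENSMUSG00000026580.16) at 164115264 to 164150026 on the same strand. The RefSeq promoter table (GRCm38.p6) holds 6 of the 9 genes, namely Sele, Selp, Icam1, Cd34, Mcam and Alcam. The bases just before the annotated start of Sele, Selp and Icam1 are shown because these 3 of the 6 hold a match to an NF-kB-like motif, GGNNNTTCC, searched on both strands of the 300-base promoter window. The capitals mark that motif and, where present, the TATA box letters TATAAA.
Sele (chr1:164047984-164048233, plus strand): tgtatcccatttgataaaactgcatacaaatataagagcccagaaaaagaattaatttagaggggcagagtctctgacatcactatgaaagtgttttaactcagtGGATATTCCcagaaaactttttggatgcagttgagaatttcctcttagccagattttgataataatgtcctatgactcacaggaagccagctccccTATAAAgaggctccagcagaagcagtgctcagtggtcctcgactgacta
Selp (chr1:164115014-164115263, plus strand): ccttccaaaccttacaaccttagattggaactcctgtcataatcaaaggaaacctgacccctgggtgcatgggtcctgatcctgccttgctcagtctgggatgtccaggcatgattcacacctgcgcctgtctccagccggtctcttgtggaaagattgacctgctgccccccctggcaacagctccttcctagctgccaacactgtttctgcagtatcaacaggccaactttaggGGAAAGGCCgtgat
Icam1 (chr9:21015690-21015984, plus strand): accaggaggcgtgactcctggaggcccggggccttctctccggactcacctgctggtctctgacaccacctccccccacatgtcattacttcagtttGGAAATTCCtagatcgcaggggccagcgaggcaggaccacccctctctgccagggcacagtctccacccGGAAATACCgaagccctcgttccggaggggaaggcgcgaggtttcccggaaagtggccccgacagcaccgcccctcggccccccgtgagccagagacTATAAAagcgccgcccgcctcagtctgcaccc
The match of Sele (GGATATTCC) is on the plus strand, that of Selp (GGAAAGGCC as printed) is on the minus strand, and in Icam1 GGAAATTCC matches on both strands and GGAAATACC on the minus strand. The motif was found in 6070 of 32851 promoters (18.5%) and TATAAA in 4473 (13.6%), so either match alone is common. No match was found in the windows of Cd34, Mcam and Alcam, which says only that these letters are not there.

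Sele had 1770, 2201, 2272, 2106 and 1919 normalised counts in control libraries 1 to 5 and 1614, 2217, 1839, 2087 and 1583 in ketogenic libraries 1 to 5. The groups overlapped, and ketogenic libraries 1 and 5 were the only ones below every control library. The means were 2054 ± 207 and 1868 ± 281 (SD, n = 5 each), with a log2 fold change of -0.14 (SE 0.0994, 95% interval -0.35 to 0.08) and an adjusted p of 0.499 by edgeR. The exact permutation test, two-sided, gave p = 0.246. A difference of this size was smaller than the spread between libraries.

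Selp, whose product is stored in endothelial granules and in platelets and moves to the surface within minutes of activation, had 2413, 2493, 2576, 2117 and 2254 normalised counts in control libraries 1 to 5. The ketogenic libraries 1 to 5 had 1736, 2431, 1851, 1930 and 1873. All but ketogenic library 2 lay below every control library, and that library lay among the controls. The means were 2371 ± 185 and 1964 ± 270 (SD, n = 5 each), a ratio of 0.828 (95% interval 0.728 to 0.942). The log2 fold change was -0.27 (SE 0.0849) with an unadjusted p of 0.00761 and an adjusted p of 0.130 by edgeR. Two-sided exact permutation gave p = 0.0317. Without ketogenic library 2 the log2 fold change was -0.36 with an adjusted p of 0.0137 by edgeR, and the number of all genes called grew from 213 to 492. Whether Selp passes by edgeR thus depends on this library, which was singled out after its values were seen. With all 10 libraries, DESeq2 gave Selp an adjusted p of 0.0404. Antisense genes overlap Selp on the other strand, and the highest count of any of them in a library was 63.

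**Figure D2:**
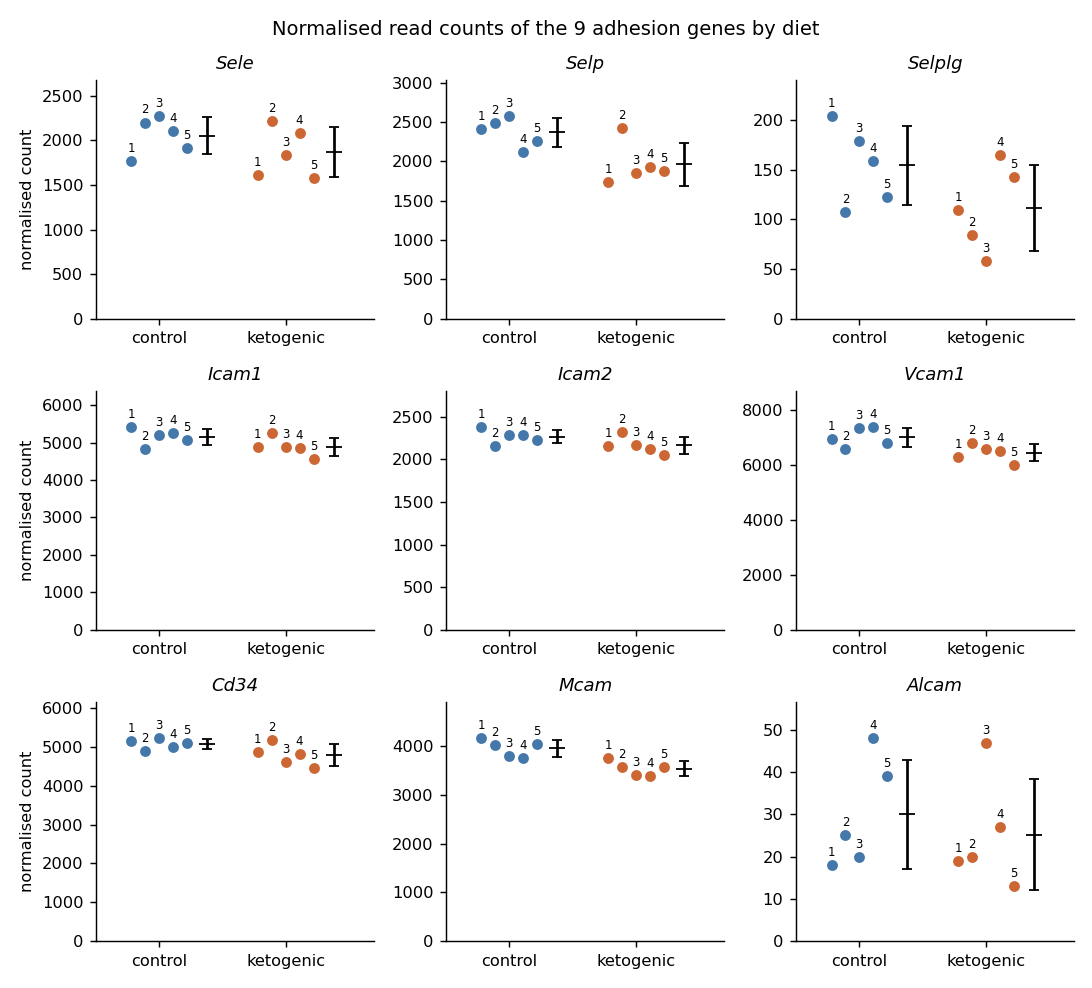
Normalised read counts (vertical axes, linear, from 0) of each gene in the control (blue) and ketogenic (orange) libraries, 1 numbered point per library, with the mean and SD of each diet in black. Mcam is the gene whose diets do not overlap, by 1 normalised count (3758 against 3757), and ketogenic library 2 stands apart from the other ketogenic libraries for Selp.

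Platelet marker sums were on average lower in the ketogenic libraries too, and within them their order was the reverse of that of Selp. All 8 platelet and megakaryocyte markers had a log2 fold change below 0, with a median of -0.86. Of these, 0 passed the adjusted threshold, although all 8 had an unadjusted p under 0.05, where 9.26% of all genes were lower. The most abundant of them, Ppbp, had a log2 fold change of -0.64 (SE 0.239, adjusted p = 0.192 by edgeR). Their summed level was lowest, 138 RPKM, in ketogenic library 2, the ketogenic library with the most Selp. With the platelet marker score as a covariate the log2 fold change of Selp was -0.46 (SE 0.105, adjusted p = 0.0623 by edgeR), a covariate added after seeing the data. The score itself differs between the diets, and the part of platelets in the values of Selp cannot be told apart from the diet. P-selectin is mainly carried by venules, and the 5 venous endothelial markers summed to 139 to 200 RPKM in control and 144 to 173 in ketogenic libraries, and 0 of them were called. The part of vein content in the Selp values was not tested.

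**Figure D3:**
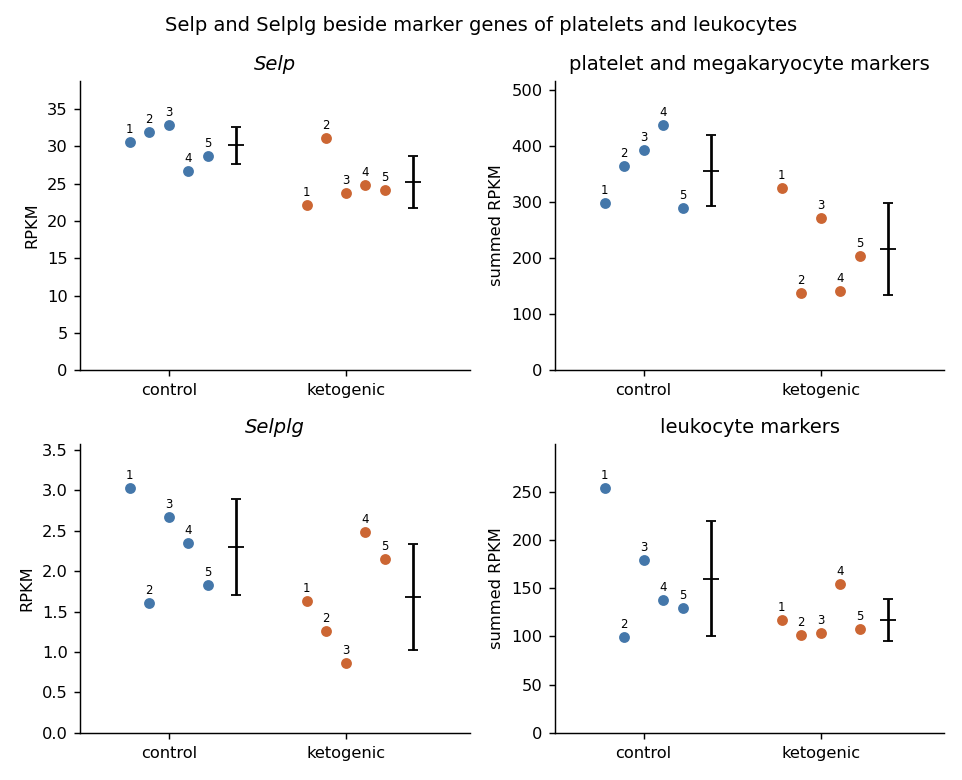
RPKM of Selp and Selplg (left) beside the summed RPKM of platelet and leukocyte markers (right) in the control (blue) and ketogenic (orange) libraries, linear axes from 0, numbered by library, with the mean and SD of each diet in black. Ketogenic library 2 has the highest ketogenic Selp value and the lowest platelet sum, and control library 1 has the highest Selplg value and the highest leukocyte sum (254).

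Selplg encodes PSGL-1, the main P-selectin ligand, which is carried by leukocytes. The gene (ENSMUSG00000048163.13) lies on chromosome 5 at 113818536 to 113832644, minus strand. It had 204, 107, 179, 159 and 123 normalised counts in control libraries 1 to 5 and 109, 84, 58, 165 and 143 in ketogenic libraries 1 to 5. Ketogenic libraries 2 and 3 were below every control library and the rest overlapped. The means were 154 ± 39.9 and 112 ± 43.4 (SD, n = 5 each), and the log2 fold change was -0.46 (SE 0.266, 95% interval -1.04 to 0.12) with an adjusted p of 0.391 by edgeR. This is the largest point estimate of the 9 genes and also among the least precise. All 7 leukocyte markers had a log2 fold change below 0 as well, with a median of -0.45, and Laptm5 was called (-0.59, adjusted p = 0.0415 by edgeR), a gene named after its values were seen. With the leukocyte marker score as a covariate the log2 fold change of Selplg was -0.09 (SE 0.228, adjusted p = 0.914 by edgeR). The summed leukocyte markers were lower on average on the ketogenic diet, but the libraries overlapped (p = 0.167, two-sided exact permutation of log2 sums). The part of leukocytes in the values of Selplg cannot be told apart from the diet.

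Cd34 and Mcam are sialomucin and immunoglobulin-type proteins of endothelium. CD34 is also a marker of blood-forming progenitor cells. MCAM sits at endothelial junctions and on pericytes. Cd34 (ENSMUSG00000016494.9, chromosome 1, 194938819 to 194961279, plus strand) had 5158, 4905, 5221, 4990 and 5105 normalised counts in control libraries 1 to 5 and 4874, 5191, 4622, 4824 and 4452 in ketogenic libraries 1 to 5. As with Selp, ketogenic library 2 overlapped with the controls and the other 4 did not. The log2 fold change was -0.08 (SE 0.0394, 95% interval -0.17 to 0.0029, adjusted p = 0.297 by edgeR), which is close to the median of -0.0646 over the 136 genes above. Its overlapping antisense gene reached at most 167 reads in a library.

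Mcam (ENSMUSG00000032135.14, chromosome 9, 44134469 to 44142727, plus strand) had 4162, 4033, 3803, 3758 and 4047 normalised counts in control libraries 1 to 5. In ketogenic libraries 1 to 5 it had 3757, 3580, 3407, 3392 and 3574. Every ketogenic library was below every control library, by 1 normalised count at the closest. Such a separation in the lower direction was seen for 1.94% of all genes tested (4.34% in either direction), and Mcam was the single case among the 9. The means were 3961 ± 173 and 3542 ± 150 (SD, n = 5 each), a ratio of 0.894 (95% interval 0.843 to 0.949). The log2 fold change was -0.16 (SE 0.0390) with an unadjusted p of 0.00140, place 338 among all genes, and an adjusted p of 0.0658 by edgeR. Two-sided exact permutation gave p = 0.00794, the smallest that 5 against 5 libraries allow.

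The estimate for Mcam stayed between -0.18 and -0.14 when any single library was left out, with adjusted p from 0.0629 to 0.154 by edgeR. Corrected for reused starts, it was -0.19 (SE 0.0469, adjusted p = 0.0725 by edgeR) with the exonic length. With the principal transcript it was -0.24 (SE 0.0666, adjusted p = 0.0924 by edgeR). Of the 10 cardiomyocyte markers 0 were called and 9 had a log2 fold change above 0. At an unadjusted p under 0.05, 7 of them were higher, beside 8.57% of all genes. With their score as a covariate the log2 fold change of Mcam was -0.08 (SE 0.0384, adjusted p = 0.428 by edgeR). In that fit the number of all genes called fell from 213 to 42. The score itself differs between the diets, so the part of cardiomyocytes in the values of Mcam cannot be told apart from the diet. The 9 mural markers, of pericytes and smooth muscle, summed to 627 to 662 RPKM in control and 603 to 669 in ketogenic libraries, with 0 called. An antisense gene that overlaps Mcam had at most 257 reads in a library. The kit does not keep strand, so reads of the pair cannot be told apart.

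**Figure D4:**
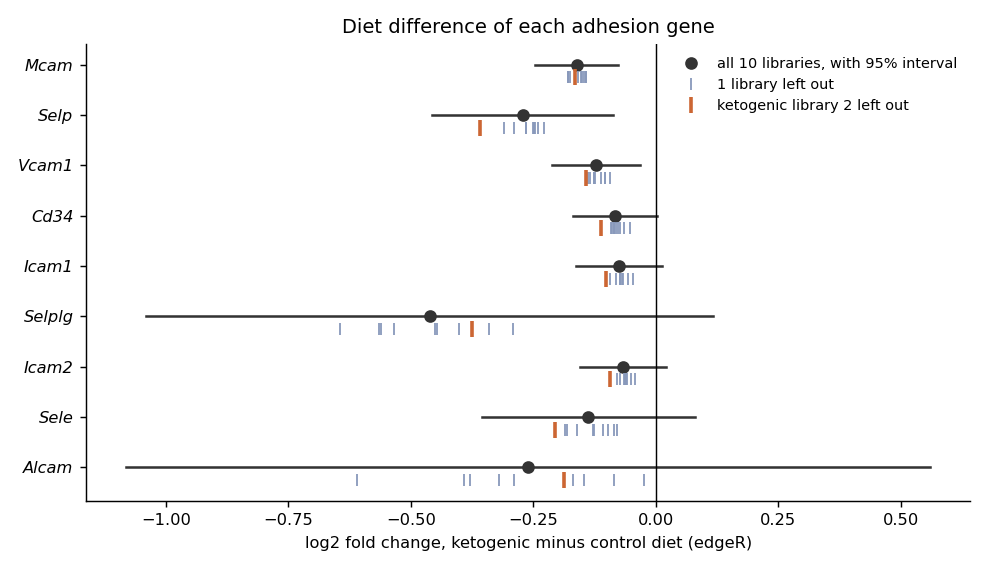
Log2 fold change of each gene (horizontal axis, ketogenic minus control diet, edgeR), ordered by unadjusted p, as a point with its 95% interval, and below it the estimates with 1 library left out (blue ticks) or ketogenic library 2 left out (orange tick). All 9 points are below 0, the intervals of Mcam, Selp and Vcam1 exclude 0, and leaving out ketogenic library 2 moves Selp to -0.36.

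The ligands of leukocyte integrins are Icam1 and Icam2, bound by LFA-1, and Vcam1, bound by VLA-4. Vcam1 (ENSMUSG00000027962.14, chromosome 3, 116109949 to 116129688, minus strand) had 6937, 6589, 7349, 7369 and 6780 normalised counts in control libraries 1 to 5 and 6292, 6810, 6573, 6514 and 5988 in ketogenic libraries 1 to 5. Again ketogenic library 2 alone lay within the control range. The means were 7005 ± 346 and 6436 ± 311 (SD, n = 5 each), and the log2 fold change was -0.12 (SE 0.0415, 95% interval -0.21 to -0.03) with an unadjusted p of 0.0122 and an adjusted p of 0.156 by edgeR. Two-sided exact permutation gave p = 0.0317. The size of this difference depended on the length taken for the gene. After correcting the counts for reused starts, it was -0.14 (SE 0.0476) with the exonic length and -1.12 (SE 0.313, adjusted p = 0.0949 by edgeR) with the principal transcript. In the latter, control libraries 3 and 4 exceeded the limit and were set just below it, where the correction is steepest.

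Icam1 (chromosome 9, 21015985 to 21028817, plus strand) had 5407, 4825, 5189, 5262 and 5070 normalised counts in control libraries 1 to 5 and 4885, 5251, 4869, 4860 and 4571 in ketogenic libraries 1 to 5. The groups overlapped, and the single ketogenic library below every control was library 5, the one with the most reads. The log2 fold change was -0.08 (SE 0.0403, 95% interval -0.16 to 0.01, adjusted p = 0.353 by edgeR). Corrected for reused starts it was -0.24 (SE 0.0731, adjusted p = 0.115 by edgeR) with the exonic length. Its counts were 97.5% to 99.6% of that limit, where the correction is steep and small differences in reads change the corrected value greatly. Icam2 (ENSMUSG00000001029.15, chromosome 11, 106377656 to 106388075, minus strand) had 2378, 2160, 2287, 2293 and 2231 normalised counts in control libraries 1 to 5 and 2163, 2327, 2171, 2122 and 2051 in ketogenic libraries 1 to 5. Its groups overlapped too, and its log2 fold change was -0.07 (SE 0.0401, 95% interval -0.15 to 0.02, adjusted p = 0.409 by edgeR). The library pattern of both genes was nearly the same, as their correlation below shows.

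Alcam (CD166), an immunoglobulin-type molecule that binds CD6 on lymphocytes, was nearly undetected. The gene (ENSMUSG00000022636.13, chromosome 16, 52248996 to 52454074, minus strand) had 17, 26, 19, 46 and 39 reads in control libraries 1 to 5 and 19, 19, 48, 28 and 14 in ketogenic libraries 1 to 5. Its log2 fold change was -0.26 (SE 0.377, 95% interval -1.08 to 0.56, adjusted p = 0.760 by edgeR). That interval is wide and covers 0, so these counts settle neither a change in either direction nor its absence. Its raw counts had a variance within the diets of 6.23 times the mean, above that of sampling.

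On the RPKM scale, a level per length, the means over the 10 libraries were 169 for Icam1, 60.7 for Icam2, 59.7 for Vcam1, 57.7 for Sele, 51.2 for Mcam, 42.7 for Cd34, 27.6 for Selp, 1.99 for Selplg and 0.265 for Alcam. Icam2, Vcam1, Sele and Mcam overlapped with their neighbours in this order and the other steps did not overlap. The deposited lengths span all exons of a gene, and for Cd34 (9914 bases) and Vcam1 (9653) they exceed the principal transcript (2454 and 3469 bases) several times. Per base of principal transcript the order began with Cd34 (2.01 reads), Icam1 (1.98) and Vcam1 (1.93), which overlapped, followed by Icam2 (1.73), Mcam (1.25), Sele (0.672), Selp (0.628), Selplg (0.0713) and Alcam (0.0046). Sele and Selp overlapped on this scale. The limit described above bears on Cd34, Icam1, Vcam1 and Icam2, so their levels and order here need not be those of the RNA. Corrected for reused starts with the exonic length, mean RPKM was 638 for Icam1 and 63.8 for Icam2, and the RPKM order of the 9 genes was unchanged. For Icam1 that correction is steep, because its counts lie close to the limit. Sele and Selp were counted at 1636 to 2309 and 1759 to 2615 reads per library on both diets. The immediate NF-kB target Nfkbia was at 158 RPKM, also near the limit (1.84 reads per base of principal transcript). These are levels after enzymatic digestion of the hearts, and the part of that step in the levels of inducible genes was not tested.

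Within the diets, the normalised levels of Icam1 and Icam2 varied together over the 10 libraries (diet-centred Pearson r = 0.980, Spearman rho = 0.976, permutation p = 0.00015, adjusted p = 0.0054 over 36 pairs, r = 0.962 without the 2 libraries farthest from the median). This was the single pair of the 36 with an adjusted p under 0.05. The raw counts of both were nearly constant and were divided by the same scaled library sizes. That division alone makes the normalised levels vary together, so the p-value says nothing about their regulation. For Sele and Selp r was 0.644 (rho = 0.539, permutation p = 0.0602, adjusted p = 0.319), and 0.459 without the 2 farthest libraries.

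Over 12378 genes averaging 50 reads or more, the pattern most like Icam1 over the 10 libraries was that of Txnip (r = 0.998, 1.53 reads per base) and Tspan7 (r = 0.998, 2.01 reads per base). For Icam2 it was Lims2 (r = 0.989, 1.63 reads per base) and Atox1 (0.987, 1.54). These 4 genes had 1.53 reads per base or more. The genes most like the others were Mir99ahg (0.930) and 9130017K11Rik (0.926) for Sele, Prr12 and Chrnb1 (both 0.947) for Selp, AB124611 (0.953) and Rps6kl1 (0.942) for Selplg, Uqcrq (0.940) for Vcam1, Tmem88 (0.966) and Cep295 (0.950) for Cd34, Snrpa (0.917) and Brd1 (0.913) for Mcam, and Gm13991 (0.971) and Extl2 (0.964) for Alcam. These r values are the highest of 12378 and are given as a description, and 5 of the 18 genes so chosen were also among the 2 highest by Spearman's rho.

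The list of leukocyte-side genes had a lower median log2 fold change than the 9 genes and the other endothelial list. These medians are not like for like, because several vessel genes lay near the count limit described above. Icam1 and Cdh5 had 1.98 and 1.87 reads per base of principal transcript, against 0.236 for Cd44 and 0.351 for Itgb2. Of 12 genes for integrins, selectin ligands and partners, 1 was called lower and 0 higher, beside 1.34% of all genes, and the median log2 fold change was -0.26. Cd44, which binds hyaluronan and can serve as an E-selectin ligand, fell from 1558 ± 127 to 1108 ± 176 normalised counts (SD over 5 libraries each, log2 fold change -0.49, SE 0.101, adjusted p = 0.0405 by edgeR), and its groups did not overlap. No gene of the list was called in 8 of the 10 fits with 1 library left out, in both limma fits, or with the cardiomyocyte or the leukocyte score as a covariate. Itgb2, the beta chain of LFA-1 and Mac-1, had 1356 ± 426 and 753 ± 148 normalised counts (SD, n = 5 each), with a log2 fold change of -0.85 (SE 0.203, adjusted p = 0.0648 by edgeR). Itgal, the alpha chain of LFA-1, had a log2 fold change of -0.86 (adjusted p = 0.0605) and Spn, leukosialin, of -1.02 (adjusted p = 0.233), both named after their values were seen. Itgax, Itgb7 and Cd6, also named afterwards, had log2 fold changes of 0.83, 0.23 and 0.22 (adjusted p of 0.570, 0.672 and 0.836), and with Itgb1 they were the 4 of 12 genes above 0. Itgb1 (0.02, adjusted p = 0.693) and Glg1, an E-selectin ligand of the Golgi (-0.03, adjusted p = 0.648), are made by most cells. The leukocyte markers are given with Selplg. The 8 lymphocyte markers summed to 59.0 to 79.7 RPKM in control and 49.7 to 58.2 in ketogenic libraries, with Cd79a of B cells called lower (log2 fold change -0.46, SE 0.0825, adjusted p = 0.0221 by edgeR). Of the 7 lymphocyte markers tested, 4 had a log2 fold change above 0 (Cd3e, Cd3d, Nkg7 and Cd8a, of T and NK cells) and the median was 0.075. The 9 macrophage markers summed to 109 to 380 against 94.8 to 191, with 0 called. The 7 markers in the leukocyte covariate all had a log2 fold change below 0 themselves. The part of these cells in the values of the list therefore cannot be told apart from the diet.

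**Figure D5:**
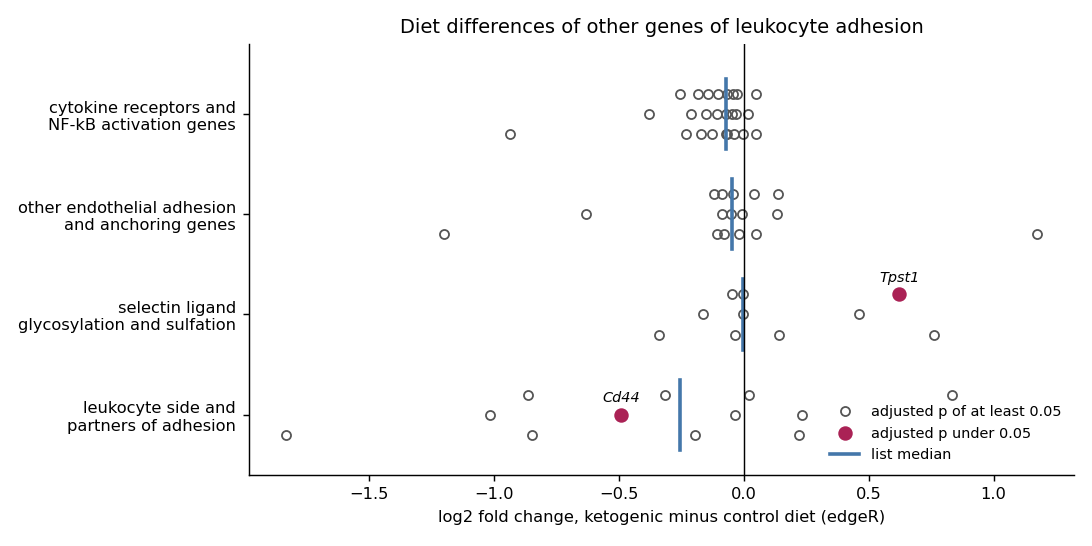
Log2 fold change (horizontal axis, ketogenic minus control diet, edgeR) of the tested genes of 4 lists, 1 circle per gene, filled where the adjusted p was under 0.05, with the list median as a blue bar. Cd44 (-0.49) and Tpst1 (0.62) are the filled genes, and the list of leukocyte-side genes has the lowest median (-0.26).

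The list of enzymes acting on selectin ligand sugars and sulfation gave the one higher call. Of 12 genes, 10 were tested, 1 was called higher and 0 lower, beside 0.809% and 0.527% of all genes. The median log2 fold change was -0.0021. At an unadjusted p under 0.05 by edgeR, 3 were higher and 0 lower, beside 8.57% and 9.26% of all genes. Tpst1, a tyrosine sulfotransferase whose family sulfates PSGL-1 at its P-selectin binding site, rose from 407 ± 38.3 to 627 ± 68.6 normalised counts (SD, n = 5 each). Its log2 fold change was 0.62 (SE 0.0893, adjusted p = 0.00717 by edgeR), and its groups did not overlap. The call was lost when the cardiomyocyte score entered the fit. That score itself differs between the diets, and with it 42 of all genes were called, against 213 without it. The related Tpst2 had a log2 fold change of -0.0026 (SE 0.0612, adjusted p = 0.988). Fuca1, a lysosomal fucosidase, had -0.03 (adjusted p = 0.631), and St3gal4, a sialyltransferase of selectin ligands, had 0.14 (adjusted p = 0.410).

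Other adhesion and anchoring genes of endothelium showed 0 calls among 16 tested, beside 1.34% of all genes, and a median of -0.05. At an unadjusted p under 0.05, 2 were higher and 4 lower, beside 8.57% and 9.26% of all genes. Cdh5, VE-cadherin of the junctions, had a log2 fold change of -0.04 (adjusted p = 0.571), Msn, moesin that anchors ICAMs to actin, of -0.11 (adjusted p = 0.195) and F11r, junctional adhesion molecule A, of -0.05 (adjusted p = 0.505), all by edgeR. Their counts reached 1.87 (Cdh5), 2.25 (Msn) and 1.60 (F11r) reads per base of principal transcript.

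Cytokine receptors, NF-kB subunits and inducible targets, the genes upstream of and parallel to Sele, Icam1 and Vcam1, had 22 of 25 log2 fold changes below 0 and a median of -0.07. None of the 25 was called, and 6 were lower and 0 higher at an unadjusted p under 0.05, where 9.26% of all genes were lower. Nfkbia, the NF-kB inhibitor, had a log2 fold change of -0.07 (SE 0.0406, adjusted p = 0.396), Rela, the main NF-kB subunit, of -0.05 (SE 0.0303, adjusted p = 0.456), and Tnfrsf1a, the main TNF receptor, of -0.03 (SE 0.0362, adjusted p = 0.752), all by edgeR. Nfkbia was counted at 1.84 and Tnfrsf1a at 1.78 reads per base of principal transcript. Of the 6 lower genes, named after their values were seen, Irf1 (1.98 reads per base) and Cxcl1 (2.34) lay at the limit described above. Tnfrsf1b, Relb, Traf1 and Csf3 had 0.406 reads per base or fewer. Among the 136 genes near that limit, 89.0% were below 0.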

How the data were processed

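RNA of bead-isolated CD31+ cardiac cells (10 ng per library, SMART-Seq v4, which does not keep strand) was sequenced by the authors as single 50-base reads. Submitters' processing notes list bcl2fastq 2.17.1.14, STAR 2.3, HTSeq 0.6.0 and build mm10, and how reads sharing a start were counted is not given in the sources used here. The authors deposited whole-number read counts per gene, not normalized, and RPKM values from them. Symbols and positions came from GENCODE M21 (GRCm38), where 46488 of 46983 identifiers matched with or without version. The principal transcript is the APPRIS one.

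Members and lists were chosen with earlier results of these data known. Diets were compared in all 10 libraries with edgeR 4.0.16 in R 4.3.3 (TMM, filterByExpr, quasi-likelihood test, Benjamini-Hochberg over 15949 genes, threshold 0.05). Normalised counts are counts divided by scaled library size, set to the mean size. Exact permutation tests used log2 CPM over all 252 regroupings into 5 and 5, two-sided. Pair correlations used 100000 permutations. Beyond the 9 genes, the text names called genes and the 3 most abundant of each of 4 pathway lists, the most abundant marker where used, and the 2 genes most like each member, of which 1 is not reported here. Alternatives were other scalings and filters, DESeq2 1.42.0, limma 3.58.1 on log2(RPKM + 1) and log2(RPKM + 0.1), marker scores or the replicate number as a term, counts corrected for reused starts, and each library left out. The start correction used both strands and either the exonic or the principal transcript length, with counts at or over the limit set just below it. The second of these lengths and the platelet score were added after seeing the data. Scripts were tested on simulated data. Of 15 marker lists, those not mentioned in the results had 0 or 1 called gene each.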

Additional observations from a re-analysis of the deposited data

Results flagged for a closer look

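Of 52 groups of 5 libraries examined (each gene, depth measure and marker sum in each diet), 4 held a library whose gap to the nearest other library exceeded Dixon's limit for 5 values as a share of the group's range. Chance flags about 1 in 20 such groups, here 2.6. For Selp, ketogenic library 2 was highest with 2431 normalised counts, against 1736 to 1930 in the other ketogenic libraries (gap 0.720 of the range). Ketogenic library 1 had the fewest genes with a read, 23131 against 23799 to 24055 (0.723). The macrophage marker sum was highest in control library 1, 380 RPKM against 109 to 173 (0.764), and in ketogenic library 4, 191 RPKM against 94.8 to 120 (0.733).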

How the results depend on the processing

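The direction of the 9 genes held in every alternative with 2 exceptions. Cd34 was 0.024 (adjusted p = 0.982 by edgeR) after the start correction with the principal transcript, and Alcam was 0.022 (adjusted p = 0.990) with the platelet marker score as a covariate. The raw counts of Icam1 and Icam2 were nearly constant, so library size mostly set their direction. That it held across scalings, filters and tests adds no support for a change in these genes. DESeq2 called 2 of the 9 genes, Selp at -0.27 (adjusted p = 0.0404) and Mcam at -0.16 (adjusted p = 0.0130), and 816 genes in all, of which 210 were among the 213 called by edgeR. Leaving out 1 library gave 0 to 1 of the 9 genes called, Selp from -0.36 to -0.23, and 86 to 492 genes in all. The low counts of genes came without control library 2 (86), ketogenic 4 (95), control 3 (98), ketogenic 3 (108) and control 1 (109), those without control 4, ketogenic 1 or ketogenic 5 were 134 each, and 492 came without ketogenic library 2 (44.3% of them higher, against 60.6% with all libraries). The number of all genes called was 113 with the replicate block, 42 (78.6% higher) with the cardiomyocyte score and 62 (74.2% higher) with the leukocyte score. With the platelet score 178 were called, 34.3% of them higher. Same-numbered libraries correlated at -0.134 to 0.0936 in their deviations from the diet means and only number 4 fell below -0.1, so the numbers do not pair the libraries, and the block called none of the 9 genes. Of the leukocyte-side genes, 3 were called without a filter on low counts and by DESeq2, 2 with the replicate block, 0 by limma with either pseudocount or with the cardiomyocyte or leukocyte score, and 0 to 2 with 1 library left out. Of the selectin ligand enzymes, 0 were called with the cardiomyocyte score. Of the cytokine and NF-kB genes, 2 were called by DESeq2 and 0 to 1 with 1 library left out, and of the other endothelial adhesion genes 0 to 1. Counts were lowest for Selplg and Alcam, whose intervals are the widest of the 9.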
